A study of Mus musculus with 8 samples.

Results

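The Mos-MAPK and cytostatic factor genes are the genes by which a mouse oocyte drives its meiotic MAP kinase pathway and later holds itself at metaphase II. They were taken by symbol as Mos, Map2k1, Mapk3, Fbxo43, Fbxo5, Cdc20 and Fzr1, and all 7 symbols were found among the 25574 genes of the expression table. RNA-seq was performed on NEBD-stage oocytes, that is, oocytes in which the nuclear envelope had broken down on resumption of meiosis. Such oocytes were selected part of the way through the culture described below. Fully grown oocytes came from CD1 mice aged 8 weeks, 46 h after 5 IU of pregnant mare serum gonadotropin. They were collected with 100 µM IBMX, a phosphodiesterase inhibitor that keeps the germinal vesicle intact, then denuded, cultured for 180 min without IBMX and exposed to 0.1 mg/mL cycloheximide for 10 min, which fixes ribosomes on mRNA. Lysates of 200 pooled oocytes were spun through a sucrose gradient and recovered as 10 fractions, of which fractions 2 to 5 formed the non-polysomal (NP) dataset and fractions 6 to 10 the polysomal (P) dataset. Each dataset had 4 libraries, which the study's methods call biological replicates, and the question was which mRNAs sat on polysomes at this stage. NP and P came from oocytes of 1 strain, age and treatment, and were taken from different parts of the gradient. The number of mice behind a pool is not stated.

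The kinase Mos is made from stored maternal mRNA when meiosis resumes. It phosphorylates MEK1, the product of Map2k1, which in turn activates ERK1, the product of Mapk3. In the oocyte the pathway shapes the spindle and maintains arrest at metaphase II. The arrest itself is an inhibition of the anaphase-promoting complex (APC/C), the ubiquitin ligase that destroys cyclin B and securin. Emi2 (Fbxo43) and Emi1 (Fbxo5) are inhibitors of this ligase, while Cdc20 and Cdh1 (Fzr1) are the coactivators that bring substrates to it. Many stored oocyte mRNAs are activated for translation through short U-rich elements, the cytoplasmic polyadenylation elements, that lie near the polyadenylation signal of the 3′ UTR.

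The 3′ ends are shown because the polysome question concerns elements of this kind. In the GENCODE transcripts of GRCm38 that were selected for each gene, the last 100 bases of the 3′ UTR (all 62 in Cdc20) were searched on the transcript strand for a polyadenylation signal (AATAAA or ATTAAA) and for the element (TTTTAT or TTTTAAT), written as DNA. The 5 windows with a signal gave these 30 bases, each ending in its last signal, with that signal and any element in capitals (an earlier copy of the signal in Map2k1 and Fbxo43 stays in lower case):
Cdc20: tcttgtTTTTATTTTATtttttctAATAAA
Mos: taccactagggcatatttttaggaAATAAA
Map2k1: ctaataaaaatactatcaagttaaAATAAA
Fbxo43: aagtggttaaaattaaaactaataATTAAA
Fbxo5: atacacataattttgtttagttaaAATAAA
These sites lie on the minus strand at chr4:118432917-118432946 for Cdc20, chr4:3870673-3870702 for Mos, chr9:64185785-64185814 for Map2k1, chr15:36150080-36150109 for Fbxo43 and chr10:5799171-5799200 for Fbxo5 (GRCm38), each in the annotated 3′ UTR. Cdc20 held 2 overlapping copies of TTTTAT, the later of which ended 7 bases before its signal, and the median 3′ UTR of the tested genes was 952 bases against these 62. Fbxo5 held 1 copy, which ended 28 bases before the nearer of its signals and 61 bases before the last one. The windows of Mos, Map2k1 and Fbxo43 held no copy, although 6 copies stood elsewhere in the 1584 bases of the Fbxo43 3′ UTR and 2 in the 915 bases of that of Map2k1. The whole 126 bases of the Mos 3′ UTR held no copy. Variant forms of the element were not searched, so the lack of a copy does not mean that a gene lacks such an element. In Mapk3 and Fzr1 neither motif was found in the window. Of 10983 tested genes with a 3′ UTR of at least 100 bases, 81.3% held a signal in the same window and 19.4% held an element. A match describes letters only. Over these genes the median log2 fold change of P over NP was −0.38 with the element in the window and −0.40 without it, a difference that was not tested.

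Expression was given by the authors as FPKM, a fragment count scaled by gene length and library size, which allows genes to be compared per length. A value is a share of its own library and not an amount per oocyte. In these bulk pools, fewer oocytes contributing and less RNA per oocyte cannot be told apart. The steps between FPKM values, taken as single counted reads or fragments, put the total to which libraries were scaled at 1299376 to 7594636 for NP and at 2677945 to 4699327 for P. The 7 genes rested on 18 steps (Fbxo5 in P replicate 2) to 12906 steps (Mos in NP replicate 4). Every P library had fewer genes above 0 (9139 to 11339) than every NP library (11703 to 13753), and the part of this in the results below was not tested. All 12 oocyte markers had a mean above 1 FPKM, their sum being 6828 to 13631 FPKM in NP and 8616 to 41846 FPKM in P. Of 13 granulosa and cumulus markers, 4 had a mean above 1 FPKM (Cyp19a1, Cyp11a1, Kitl and Nr5a2), Foxl2, Amhr2, Has2 and Ptx3 were at 0 in all libraries, and the sum was 15.3 to 141 FPKM in NP and 20.3 to 64.0 FPKM in P. None of 5 theca and stroma markers had a mean above 1 FPKM. Of 6 blood markers 4 were found, of which Cd68 alone had a mean above 1 FPKM, with a sum of up to 35.9 FPKM in NP and 0 in P.

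Mos was the most abundant of the 7 mRNAs in every library. Its FPKM values were 1497, 1206, 608 and 1173 in NP replicates 1 to 4 and 1778, 609, 726 and 1282 in P replicates 1 to 4. The datasets overlapped almost completely, with 1 low library in NP (replicate 3) and a low pair in P (replicates 2 and 3). The mean was 1121 ± 371 FPKM (SD, n = 4) in NP and 1099 ± 540 FPKM (SD, n = 4) in P, a ratio of 0.980. Mos ranked between 35 and 77 of 14292 tested genes in NP and between 38 and 76 in P, so it stood above 99.5% to 99.8% of the genes in all 8 libraries. It was also the least variable of the 7 genes, with a coefficient of variation of 33.1% in NP and 49.1% in P. The gene, at chr4:3870657-3872105 on the minus strand, has a single exon of 1449 bases.

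Map2k1 (chr9:64185770-64253631, minus strand), the MEK1 gene, was about an order of magnitude below Mos. Its values were 89.1, 90.3, 63.6 and 166 FPKM in NP and 149, 21.7, 55.99 and 94.6 FPKM in P. P replicate 2 was the low library, and the other P libraries lay in or near the NP range. The means were 102 ± 44.1 FPKM in NP and 80.4 ± 54.8 FPKM in P (SD, n = 4 each).

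Mapk3 (chr7:126759601-126765819, plus strand), the ERK1 gene, was the second most abundant member by its mean and one of the most variable. Its values were 389, 532, 63.0 and 215 FPKM in NP and 110.3, 514, 61.7 and 285 FPKM in P. Replicate 2 was the highest library and replicate 3 the lowest in both datasets, with an 8.44-fold range in NP and an 8.33-fold range in P. The means were 300 ± 204 FPKM in NP and 243 ± 205 FPKM in P (SD, n = 4 each).

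Fbxo43 (chr15:36150060-36164884, minus strand), which encodes Emi2, the inhibitor that holds the APC/C at metaphase II, gave 50.6, 34.0, 66.9 and 22.0 FPKM in NP. In P it gave 51.0, 39.7, 60.9 and 2.96 FPKM. The first 3 P libraries sat inside the NP range and P replicate 4 fell far below it, on 32 steps, so that the range within P was 20.6-fold. The means were 43.4 ± 19.6 FPKM in NP and 38.6 ± 25.3 FPKM in P (SD, n = 4 each).

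Fbxo5 (chr10:5799160-5805600, minus strand), which encodes Emi1, an inhibitor that limits APC/C activity in the earlier stages of meiosis, gave 19.4, 20.7, 34.4 and 16.2 FPKM in NP. In P it gave 23.5, 2.80, 16.4 and 8.02 FPKM. P replicates 2 and 4 were below every NP library, whereas P replicates 1 and 3 lay within the NP range. The means were 22.7 ± 8.01 FPKM in NP and 12.7 ± 9.12 FPKM in P (SD, n = 4 each), a ratio of 0.559, the lowest of the 7 genes.

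Cdc20 (chr4:118432901-118437352, minus strand), the coactivator used at the exit from metaphase, gave 77.1, 46.1, 17.4 and 16.7 FPKM in NP and 96.8, 32.1, 27.8 and 40.4 FPKM in P. The NP libraries fell into a higher and a lower pair, and 3 of the 4 P libraries lay between them. With means of 39.3 ± 28.7 FPKM in NP and 49.3 ± 32.1 FPKM in P (SD, n = 4 each), it was the only one of the 7 genes with a higher mean in P. On the opposite strand, Elovl1 overlaps 53 of the 1868 exonic bases of Cdc20. Elovl1 itself had means of 34.9 FPKM in NP and 24.0 FPKM in P, and no source used here states whether counting used strand.

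Fzr1 (chr10:81366222-81378516, minus strand), which encodes Cdh1, the coactivator that keeps cyclin B low before meiosis resumes, gave 26.5, 37.9, 5.17 and 10.0 FPKM in NP. In P it gave 24.8, 24.4, 2.16 and 17.7 FPKM. As with Mapk3, replicate 3 was the lowest library in both datasets. The means were 19.9 ± 15.1 FPKM in NP and 17.3 ± 10.6 FPKM in P (SD, n = 4 each).

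**Figure D1:**
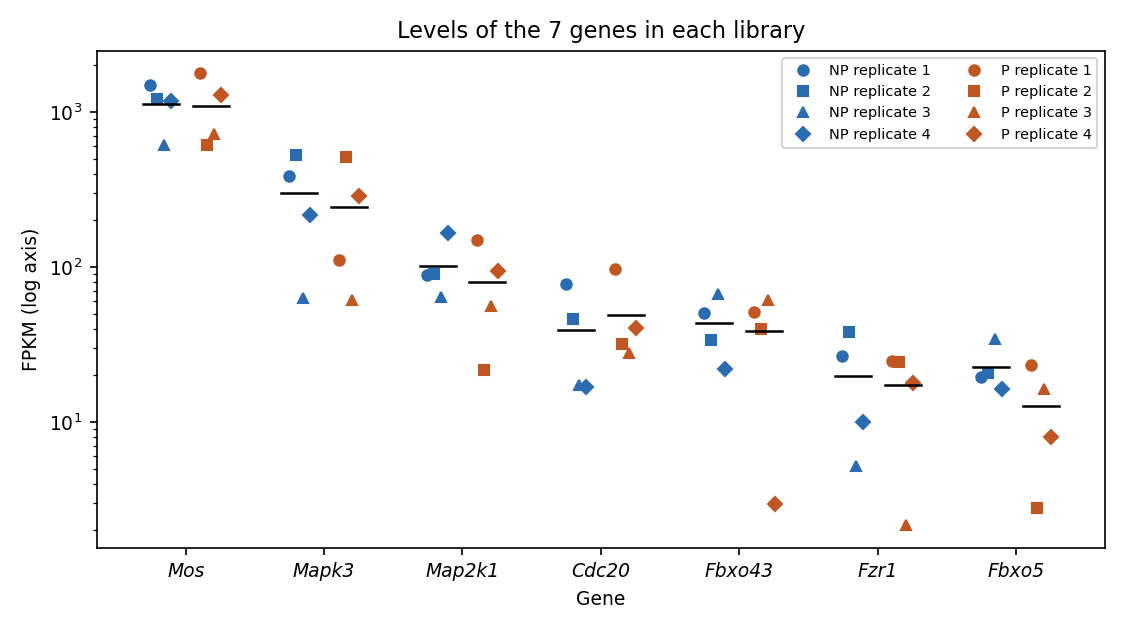
FPKM (log axis) of the 7 genes in each of the 4 NP (blue) and 4 P (orange) libraries; the marker shape gives the replicate number and the black bar the arithmetic mean of a dataset. The Mos values sit above those of every other gene and the NP and P values of each gene overlap. P libraries below the NP range include replicate 4 for Fbxo43 (2.96) and replicate 3 for Fzr1 (2.16). For Fbxo5 they are replicates 2 (2.80) and 4 (8.02).

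By mean FPKM over the 8 libraries the order was Mos, Mapk3, Map2k1, Cdc20, Fbxo43, Fzr1 and Fbxo5. Mos was above Mapk3 in 8 of 8 libraries and their ranges did not overlap. Each of the other neighbours in the order had overlapping ranges. Mapk3 exceeded Map2k1 in 6 of 8 libraries, and Map2k1 exceeded Cdc20 in 7 of 8. Cdc20 exceeded Fbxo43 in only 4 of 8 libraries, Fbxo43 exceeded Fzr1 in 6 of 8, and Fzr1 exceeded Fbxo5 in 5 of 8. The 3 kinases of the cascade were therefore the upper 3 in mean level, and the order among the APC/C regulators was not resolved beyond the spread between libraries.

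None of the 7 mRNAs differed between P and NP beyond the spread between replicates. In limma on log2(FPKM + 1), with Benjamini-Hochberg adjustment over 14292 genes and a threshold of 0.1, 0 of 7 genes were called, and at an unadjusted p under 0.05 the count was also 0 of 7. Over all genes the same test called 0.021%, and 9.95% had an unadjusted p under 0.05, so a count of 0 of 7 is near the background. In 7 of 7 genes the P and NP libraries overlapped. Over all genes, P lay wholly above NP in 0.357% and NP wholly above P in 5.92%. Exact permutation tests over the 70 assignments of libraries (2-sided, smallest possible p = 0.0286) gave p from 0.200 for Fbxo5 to 0.943 for Mos.

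Mos had a log2 fold change of −0.09 (SE 0.56, limma adjusted p = 0.950), with a 95% confidence interval from 0.410-fold to 2.16-fold. This was the narrowest interval of the 7 genes on the log2 scale. Among the kinases, Map2k1 had a log2 fold change of −0.56 (SE 0.66, limma adjusted p = 0.732, interval 0.252-fold to 1.81-fold). Mapk3 had −0.37 (SE 0.79, limma adjusted p = 0.846, interval 0.239-fold to 2.51-fold). None of these intervals shows equal levels, since each spans more than a 5-fold range.

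Of the APC/C inhibitors, Fbxo5 had the lowest log2 fold change of the 7 genes, −1.05 (SE 0.75, limma adjusted p = 0.639, interval 0.157-fold to 1.48-fold). Fbxo43 had −0.61 (SE 0.86, limma adjusted p = 0.769, interval 0.183-fold to 2.34-fold). That value turned to 0.31 without P replicate 4, the library with 2.96 FPKM. Of the coactivators, Cdc20 had 0.42 (SE 0.70, limma adjusted p = 0.798, interval 0.474-fold to 3.78-fold) and Fzr1 had −0.23 (SE 0.89, limma adjusted p = 0.918, interval 0.228-fold to 3.20-fold).

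The zero of this scale was not the centre of the data. The median log2 fold change of all tested genes was −0.39, and the interquartile range lay between −1.02 and 0.10. Relative to that median, 4 of 7 genes were above it (Mos, Mapk3, Cdc20 and Fzr1) and 3 below it, and the median of the 7 genes was −0.37. Centring each library on its median added 0.96 to the log2 fold change of every gene alike, which moved the median of all genes to 0.57. Of the 7 genes only Fbxo5 (−0.10) stayed negative. Their order and their position against the median of all genes did not change. Fbxo5 and Cdc20 kept their signs under the 17 other settings, at values as small as −0.10 and 0.04, and neither was called under any. Cdc20 had 0.04 without P replicate 1, 0.12 without NP replicate 4 and 0.14 without NP replicate 3, and Fbxo5 had −0.54 without P replicate 2. Map2k1 had −0.05 without P replicate 2, −0.30 without NP replicate 4 and −0.96 without P replicate 1.

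**Figure D2:**
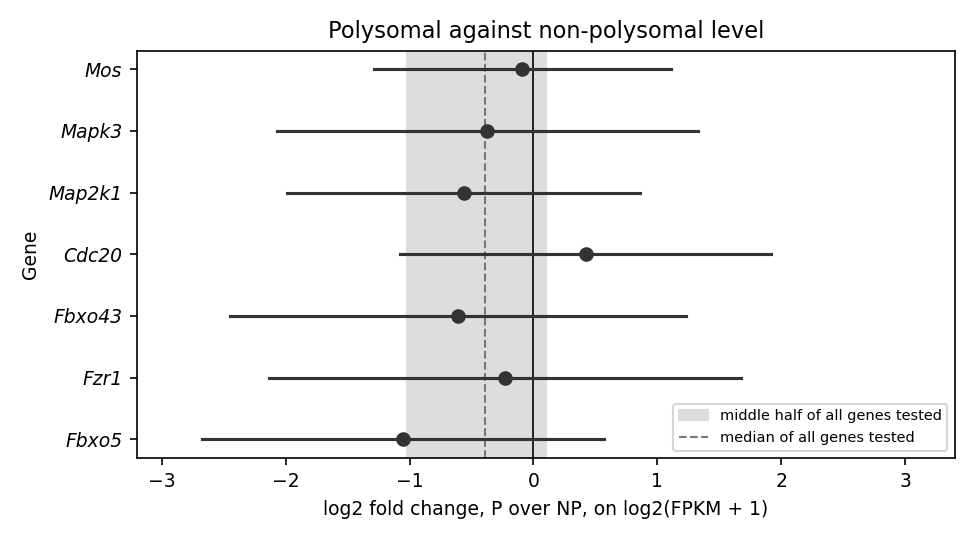
Log2 fold change of P over NP (points) with its 95% confidence interval (lines) from limma on log2(FPKM + 1), n = 4 libraries per dataset; the grey band is the interquartile range of all 14292 tested genes and the dashed line their median. Every interval includes 0 and the median of −0.39, and Cdc20, at 0.42, is the gene farthest to the right.

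Percentiles within a library do not depend on scaling between libraries. Cdc20 stood at a mean percentile of 79.1 ± 9.35 in NP and 86.0 ± 4.21 in P (SD, n = 4 each, exact permutation p = 0.257). Fbxo5 moved the other way, from 75.1 ± 4.55 to 69.3 ± 10.3 (exact permutation p = 0.429). Adjusted over the 7 genes, every permutation p was 0.914, and percentiles did not separate P from NP for any of them.

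Some of the genes were low or high in the same replicate number of both datasets. Mapk3 and Fzr1, with 57.6% and 59.9% GC in their transcripts, were both lowest in replicate 3 of NP and of P. Fbxo43, with 42.6% GC, was highest in replicate 3 of both. Among tested genes the GC of Mapk3 was at percentile 88.2, that of Fzr1 at 95.2 and that of Fbxo43 at 12.2, while Mos (53.5% GC) and Map2k1 (51.2% GC) were nearer the middle. Mos and Map2k1 were also lowest in replicate 3 within NP, by 0.81 and 0.59 below their NP means on the log2 scale, but not within P. Measured from each gene's mean, the fifth of genes richest in GC stood 0.71 below the fifth poorest in GC on the log2 scale in NP replicate 3 and 0.37 below it in P replicate 3. In NP replicates 1 and 2 it stood 0.46 and 0.72 above it. The part of base composition in the values of single genes was not tested on its own. Medians of GC bins were aligned between libraries, an alternative added after these values were seen. Taking out the bin medians also centres each library, so a change in range cannot be told apart from an effect of scaling. After this alignment the range of Mapk3 within NP was 2.55 on the log2 scale, against 3.06 before, and NP replicate 3 was still its lowest NP library. The range within NP went from 1.04 to 0.22 for Fbxo5, from 1.30 to 1.29 for Mos and, in the other direction, from 1.37 to 1.88 for Map2k1. For Cdc20 the alignment left every P library above every NP library, with a log2 fold change of 1.59 that was not called (limma adjusted p = 0.259). The alignment also moved the median of all genes to 0.50, and under it P lay wholly above NP in 9.66% of the genes.

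**Figure D3:**
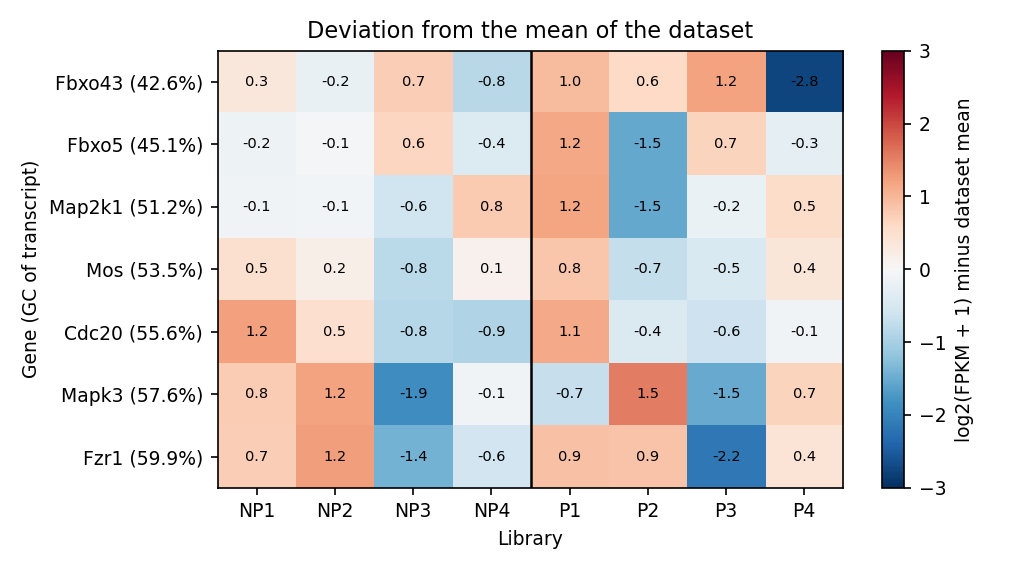
Deviation of each gene's log2(FPKM + 1) from its mean within the dataset, for the 4 NP and 4 P libraries (columns) and the 7 genes ordered by transcript GC (rows, GC in parentheses); red is above and blue below the mean. Mapk3 and Fzr1 are lowest and Fbxo43 highest in replicate 3 of both datasets, and the deepest value is Fbxo43 in P replicate 4 (−2.76).

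The 7 genes did not share a single pattern over the libraries. After each gene was centred on its own mean, the root mean square difference over 8 libraries was smallest between Mos and Map2k1 (0.53 on the log2 scale), followed by Mos and Cdc20 (0.58) and Mapk3 and Fzr1 (0.69). It was largest between Mapk3 and Fbxo43 (2.01). Among the 5638 other genes with a mean above 10 FPKM, the patterns closest to Mos were those of Map1lc3b (0.21) and Pskh1 (0.26), and to Map2k1 those of Gnb4 (0.19) and Rcl1 (0.26). Closest to Fbxo43 were Kif24 (0.27) and Haus7 (0.31), to Fbxo5 Dnaja4 (0.32) and Ap3s2 (0.35), and to Cdc20 Slc25a38 (0.33) and Oas1e (0.35). Fzr1 was closest to Pkm (0.42) and Mepce (0.44), and Mapk3 had no neighbour nearer than Gm15941 (0.55) and Rabl5 (0.56). These differences describe the same 8 libraries and carry no test.

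Ratios between partners were taken within each library as log2 of the ratio of FPKM + 1. Scaling between libraries nearly cancels where both values are well above 1 FPKM, but not at lower values. The ratio of Mos to its substrate Map2k1 was 4.05, 3.72, 3.24 and 2.82 in NP replicates 1 to 4 and 3.56, 4.75, 3.67 and 3.75 in P. Mos was higher in 8 of 8 libraries, and P replicate 2 stood apart at the top, where Map2k1 was at its lowest. The difference, P minus NP, was 0.47 (SE 0.39, exact permutation p = 0.314), and 0.20 without P replicate 2 or 0.26 without NP replicate 4. The ratio of Map2k1 to Mapk3 had a lowest value of −2.54 and a highest of 0.01 in NP, and of −4.50 and 0.43 in P. It differed by −0.19 (SE 1.27, exact permutation p = 0.971), and the difference turned positive without NP replicate 3 (0.23), NP replicate 4 (0.10) or P replicate 2 (0.83). Mapk3 was thus the higher mRNA of that pair in 3 of 4 libraries of each dataset.

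Map2k1 was above Map2k2, the MEK2 gene, in 8 of 8 libraries, with a mean log2 ratio of 2.67 ± 0.69 in NP and 3.93 ± 1.28 in P (SD, n = 4 each). The difference of 1.26 (SE 0.73, exact permutation p = 0.143) had the lowest p of the 6 pairs. It was 0.70 without P replicate 3 and 1.99 with a pseudocount of 0.1. Map2k2 itself had 16.1 ± 7.83 FPKM in NP and 6.55 ± 7.65 FPKM in P. Map2k2 was at 0.670 FPKM in P replicate 2 and 0.181 FPKM in P replicate 3, where scaling does not cancel in the ratio. At the shortest length that gave whole steps, it rested on 8 steps in P replicate 2 and 3 steps in P replicate 3.

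Fbxo43 was above Fbxo5 in 7 of 8 libraries. The log2 ratio was 1.34, 0.68, 0.94 and 0.41 in NP and 1.09, 3.42, 1.83 and −1.19 in P. The NP libraries were close together, whereas P held both the highest and the lowest value, from the low Fbxo5 of replicate 2 and the low Fbxo43 of replicate 4. The difference was 0.44 (SE 0.98, exact permutation p = 0.657), and −0.27 without P replicate 2. Cdc20 was above Fzr1 in 8 of 8 libraries, with log2 ratios of 1.51, 0.28, 1.57 and 0.68 in NP and 1.92, 0.38, 3.19 and 1.14 in P. That difference was 0.65 (SE 0.68, exact permutation p = 0.4), and it was 0.14 without P replicate 3, 0.41 without NP replicate 2 and 1.08 without P replicate 2. With adjustment over the 6 pairs tested, of which 5 are described, the adjusted p was 0.971 for Map2k1 to Mapk3 and 0.789 for each of the others, so no ratio described differed between P and NP beyond the spread between libraries.

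**Figure D4:**
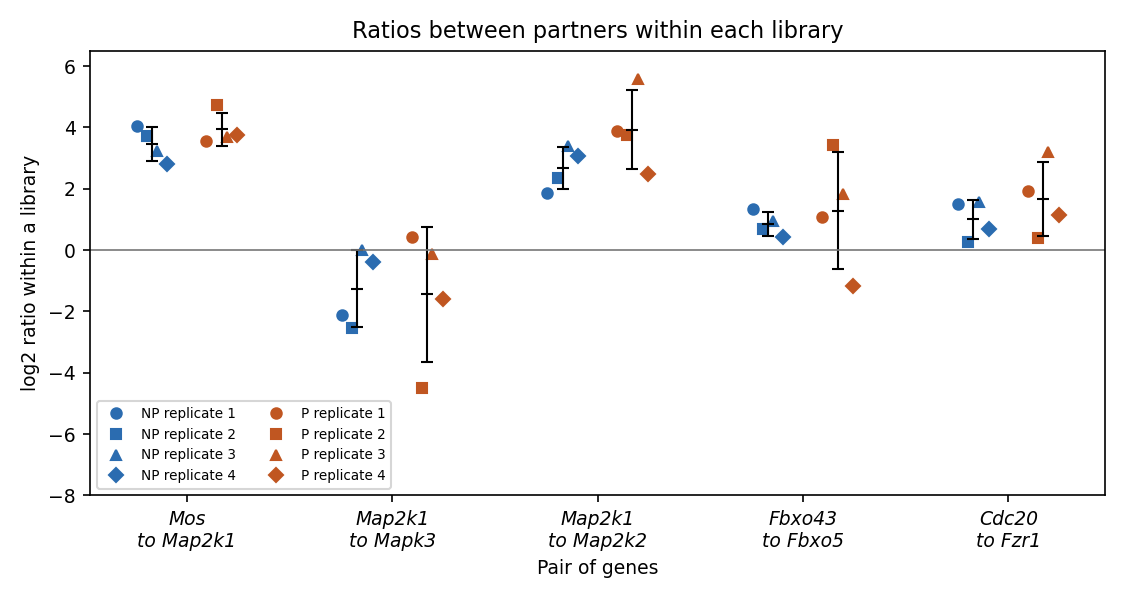
Log2 ratio of FPKM + 1 between paired genes within each library, for NP (blue) and P (orange), with the mean and SD of 4 libraries in black and the replicate number as marker shape. Mos to Map2k1, Map2k1 to Map2k2 and Cdc20 to Fzr1 are above 0 in all 8 libraries, and the P values of Map2k1 to Mapk3 reach from −4.50 to 0.43.

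The wider pathway was read through 41 listed symbols of upstream kinases, effectors, phosphatases and degradation factors, of which 40 were found and tested. limma called 0 of 40, and 6 of 40 had an unadjusted p under 0.05, all with a negative fold change, against 9.95% of all genes in either direction. NP lay wholly above P in 5 of 40 genes, beside 5.92% of all genes, and P wholly above NP in 0 of 40, beside 0.357%. The log2 fold change was positive in 11 genes and negative in 29, with a median of −0.49 beside −0.39 for all genes. The lowest adjusted p of the list was 0.376.

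Around the kinase cascade, the ERK effector kinase of the RSK family with the highest NP level was Rps6ka1, with 27.5 ± 12.8 FPKM in NP and 12.0 ± 9.59 FPKM in P. Rps6ka2, of the same family, was at 0.812, 1.42, 0.864 and 0.244 FPKM in NP and at 0.197, 0, 0 and 0 FPKM in P, which separated the datasets. The most steps in a library were 34, at the shortest length that gave whole steps. Ksr2, a scaffold of the cascade, was at 1.92, 11.1, 3.19 and 3.86 FPKM in NP and at 0.0932, 0, 0 and 0 FPKM in P, the P value being 1 step by the same count. Dusp6, a phosphatase of ERK, was likewise separated near the detection limit, with at most 1.01 FPKM in any library and 9 steps. The lengths of Rps6ka2, Ksr2 and Dusp6 were searched for, so these step counts are the fewest that fit the values.

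Cdk2ap2 and Mapk1ip1 encode ERK substrates of the meiotic spindle. Cdk2ap2 had 72.1 ± 24.6 FPKM in NP and 73.7 ± 18.3 FPKM in P. Mapk1ip1 had 100.2, 195, 56.5 and 264 FPKM in NP and 61.8, 66.1, 2.75 and 0 FPKM in P. Its P libraries formed a pair inside the NP range and a pair near 0, and the log2 fold change of −3.56 (SE 1.18, limma adjusted p = 0.412) was the lowest of the list. Spred2, an inhibitor of signalling upstream of MEK, had 35.6 ± 28.4 FPKM in NP and 6.20 ± 5.90 FPKM in P (log2 fold change −2.48, SE 0.87, limma adjusted p = 0.416).

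On the APC/C side, Ube2c, an E2 ubiquitin-conjugating enzyme that works with this ligase, was the abundant gene that separated the datasets. It had 170 FPKM in NP replicate 1, 59.5 in replicate 2, 82.8 in replicate 3 and 187 in replicate 4, and 43.5, 55.7, 13.7 and 34.0 FPKM in P. Every NP library was above every P library, the means being 125 ± 63.2 FPKM and 36.7 ± 17.7 FPKM, but the gene was not called (log2 fold change −1.74, SE 0.64, limma adjusted p = 0.420). The other E2 enzyme, Ube2s, had 262 ± 222 FPKM in NP and 411 ± 399 FPKM in P. Plk1, the kinase that marks Emi1 and Emi2 for degradation, had 413 ± 225 FPKM in NP and 401 ± 157 FPKM in P. Cul1, the scaffold of the SCF ligase that degrades them, had 105 ± 61.9 FPKM in NP and 228 ± 101 FPKM in P (log2 fold change 1.17, SE 0.60, limma adjusted p = 0.528). Camk2g, the calcium-dependent kinase that triggers loss of Emi2 at fertilization, had 302 ± 104 FPKM in NP and 196 ± 140 FPKM in P. All 5 genes for B56 subunits of PP2A, the phosphatase that protects Emi2, had a negative log2 fold change with a median of −1.27, on a scale where 28.6% of all tested genes were positive. Ppp2r5b was positive with libraries centred (0.18) or GC bins aligned (0.33). It stayed below the median of all genes, which was 0.57 and 0.50 under these settings. Ppp2r5c was positive without P replicate 4 (0.06). Among the 5 B56 genes Ppp2r5e alone separated the datasets, and none was called. Ppp2r5e was at 1.56, 2.24, 12.6 and 4.05 FPKM in NP and 0.266, 0.13, 1.17 and 0 FPKM in P.

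**Figure D5:**
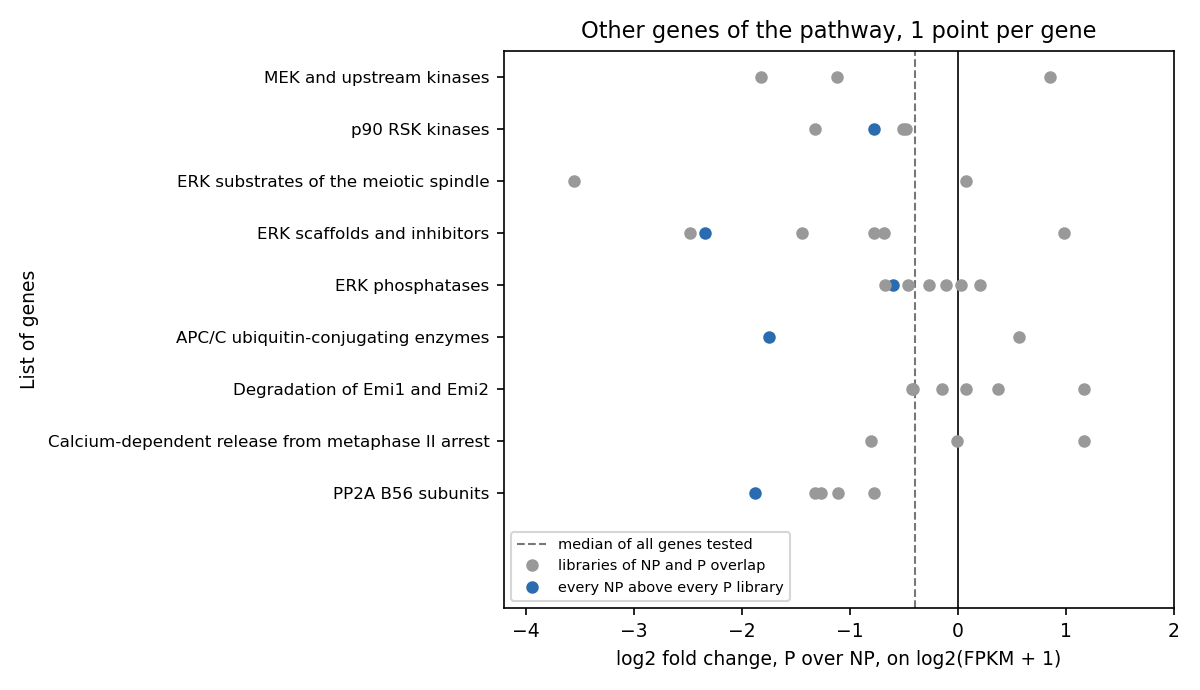
Log2 fold change of P over NP, on log2(FPKM + 1), for other genes of the pathway, 1 point per gene in 9 lists; blue points are the 5 genes whose 4 NP libraries all exceed the 4 P libraries, and the dashed line is the median of all genes tested. Points lie on both sides of the dashed line at −0.39, the lowest being Mapk1ip1 at −3.56.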

How the data were processed

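Per the submitters' processing notes, Trim Galore 0.4.1 was used for trimming and HISAT2 2.0.5 for mapping, on GRCm38. The authors deposited FPKM values per gene for 4 NP and 4 P libraries, which were used as deposited. The RNA was depleted of rRNA, reverse transcribed with random and oligo(dT) primers and amplified before library preparation, so the reads are not independent molecules and steps give counting error only. A table of gene means and a table of the authors' own DESeq2 comparison were not used; 0 columns were left without a sample. Groups and replicate numbers came from the library titles. P was compared with NP in limma 3.58.1 (R 4.3.3, eBayes with trend, 2-sided) on log2(FPKM + 1), for 14292 genes whose mean FPKM was above 0.1 in NP or P, with a threshold of 0.1 on the Benjamini-Hochberg adjusted p; all 7 genes passed this filter. Percentiles and within-library ratios were compared by exact permutation tests with scipy 1.17.1. The scale of each library was recovered from 6981 genes whose values were whole steps at their annotated exon length, within 0.01 plus 5e-06 per step. The lengths of Mapk3 and of some listed genes were searched for. The shortest length that gave whole steps was taken, so their step counts are the fewest that fit. Sequences, GC and exon lengths came from GENCODE M21 transcripts on GRCm38. The scripts were tested on simulated data.

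NP and P were pooled from fractions of the same gradients, but whether equal replicate numbers share a gradient is left unsaid by the labels and methods. Deviations of same-numbered libraries correlated at 0.139, 0.0518, 0.251 and 0.155, not all above 0.1, so libraries were treated as unpaired. Every P library nevertheless correlated best with the NP library of its own number, and a replicate block was run as an alternative. The members, lists and tests were chosen with earlier results of these data known. Some genes of the lists are not reported here. Genes named are the 7 members, listed pathway genes that were called, separated the datasets or are partners or paralogs of members, and the 2 genes with the pattern closest to each member. Spred2, Mapk1ip1, Cdk2ap2, Camk2g, Rps6ka1, Ube2s and Cul1 fall outside that rule in part and were named after their values were seen. Alternatives were other scalings, filters and pseudocounts, voom on recovered steps, a replicate block, alignment of GC bins and leaving out single libraries.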

Additional observations from a re-analysis of the deposited data

Results flagged for a closer look

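In 40 groups of 4 values (levels, percentiles and ratios of the genes above), the gap of the highest or lowest library to its nearest neighbour was compared with the range of the group, and 3 groups had a library that stood apart. Chance flags about 1 in 20 groups. Fbxo43 stood at percentile 58.8 in P replicate 4, against 86.3 to 90.2 in the other P libraries. Fzr1 stood at percentile 53.2 in P replicate 3, against 77.3 to 81.0 in the others. The log2 ratio of Mos to Map2k1 was 4.75 in P replicate 2, against 3.56 to 3.75 in the others. The 3 values came from 3 different P libraries and none from NP.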

How the results depend on the processing

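None of the 7 genes was called under any of the settings tried, the lowest limma adjusted p being 0.191 (Cdc20, GC bins aligned with a replicate block), and Fbxo5 and Cdc20 kept their sign in all of them, at values as small as −0.10 and 0.04. The replicate block left the log2 fold changes as they were and called 1 gene of all tested instead of 3. It gave a smaller SE for each of the 7 genes, from 0.45 for Mos to 0.72 for Fbxo5. For Mapk3 the SE was 0.52 against 0.79 in the main fit. In the within-library ratios, sign flips of the 4 replicate numbers, where the smallest possible p is 0.125, gave adjusted p of 0.5625 to 0.875. Cdc20 to Fzr1 was higher in P in 4 of 4 same-numbered libraries, at that smallest p before adjustment. Of the 4 NP libraries 3 correlated best with the P library of their own number, the exception being NP replicate 2. Read from the other side, every P library correlated best with the NP library of its own number. The margin was small for P replicate 1, at 0.139 with NP replicate 1 and 0.136 with NP replicate 2. Centring each library on its median shifted every gene by 0.96 and so reversed Mos (0.87), Map2k1 (0.39), Mapk3 (0.59), Fbxo43 (0.35) and Fzr1 (0.73). The median of all genes moved with them to 0.57, so no gene changed its position against that median. Aligning GC bins, chosen after seeing the data, reversed Mos (0.80), Map2k1 (0.42), Mapk3 (0.67), Fbxo43 (0.15) and Fzr1 (0.77), with the same values under the replicate block, and gave 1 gene with no overlap (Cdc20, P above NP, as in 9.66% of all genes under that alignment). The median of all genes was 0.50 with GC bins aligned. With quantile normalization, where that median was −0.02, Fzr1 also came to 0.38. Mos came to 0.0051 with voom on recovered steps, beside a median of −0.95 for the genes in that test. The voom test was without Mapk3, over 6306 genes, and called 108. Other counts over all genes were 5 with a pseudocount of 0.1, 5 above 1 FPKM, 0 without a filter, and 0 with quantile normalization, centring or GC bins aligned. Leaving out 1 library gave ranges of −0.36 to 0.15 for Mos, −0.96 to −0.05 for Map2k1, −1.44 to −0.54 for Fbxo5, 0.04 to 0.84 for Cdc20, −0.99 to 0.13 for Mapk3, −1.01 to 0.31 for Fbxo43 and −0.70 to 0.49 for Fzr1, and of −0.82 to 0.83 for the ratio of Map2k1 to Mapk3 and −0.27 to 1.27 for that of Fbxo43 to Fbxo5, 0.14 to 1.08 for Cdc20 to Fzr1, 0.70 to 1.75 for Map2k1 to Map2k2 and 0.20 to 0.67 for Mos to Map2k1. Mos was positive without NP replicate 1 (0.07), P replicate 2 (0.15) or P replicate 3 (0.07), Mapk3 without NP replicate 2 (0.03) or P replicate 3 (0.13), Fbxo43 without P replicate 4 (0.31), and Fzr1 without NP replicate 1 (0.02), NP replicate 2 (0.19) or P replicate 3 (0.49). The causes were not tested.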
